A study of Homo sapiens with 6 samples.

Results

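Enterocytes are the absorptive cells that line the gut, and their apical face carries a brush border. This report covers 10 genes that mark that cell type or build that surface: VIL1, EZR, CDHR2, CDHR5, LGALS4, FABP1, ANPEP, DPP4, HNF4A and KLF5. They were listed by name, with earlier results of these data known, and all 10 were found among the 27434 rows of the deposited tables. HT-29 cells, an established human colon adenocarcinoma line, were treated with siRNA pools at 10 nM and harvested after 48 h according to the sample labels; the methods of the study give another dose and another RNA extraction. A non-targeting pool (siNT) was the control, and the other cells received a pool against the lncRNA HOXA-AS3 (siHOXA-AS3) or against the lncRNA HOXB-AS3 (siHOXB-AS3). Each condition had 2 poly(A) RNA-seq libraries, for 6 libraries in all, and every library came from the same line in the same medium. Nothing in the labels says that the libraries of a condition came from separate cultures, so the p-values below measure only the spread between these libraries.

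A brush border is an array of microvilli, each a bundle of actin filaments wrapped in membrane. Villin (VIL1) bundles the filaments, ezrin (EZR) ties them to the membrane, and the protocadherins CDHR2 and CDHR5 link the tips of neighbouring microvilli. The membrane displays peptidases such as aminopeptidase N (ANPEP) and dipeptidyl peptidase 4 (DPP4), the cytosol holds the fatty acid carrier FABP1, and galectin-4 (LGALS4) is a lectin that helps to sort proteins to the apical surface. HNF4A is a nuclear receptor that drives enterocyte genes, and KLF5 is a zinc finger factor of crypt and villus epithelium. HT-29 cells are known to take on enterocyte or mucus-producing features under some growth conditions. In bulk RNA, fewer cells of a type and less RNA per cell cannot be told apart.

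Total expected counts per library ranged from 15998518 to 26263938. The targeted lncRNAs were checked first. HOXB-AS3 was at 27.04 and 29.28 FPKM in siNT, 25.59 and 27.77 FPKM in siHOXA-AS3, and 6.05 and 7.96 FPKM in siHOXB-AS3. It was thus lower in both siHOXB-AS3 libraries, with a log2 fold change of -1.96 (SE 0.25) against siNT (edgeR adjusted p = 0.0678, DESeq2 adjusted p = 5.12e-07). HOXA-AS3 was scarce throughout, at 0.38 and 0.30 FPKM in siNT, 0.13 and 0.19 FPKM in siHOXA-AS3, and 0.32 and 0.26 FPKM in siHOXB-AS3. Its log2 fold change in HOXA-AS3 KD was -1.09 (SE 0.40, edgeR adjusted p = 0.711, DESeq2 adjusted p = 0.9999). This rested on 38 and 18 expected counts in siNT and 12 and 12 in siHOXA-AS3. Neither test called the decrease, so HOXA-AS3 KD below names the siRNA treatment. The siHOXA-AS3 libraries stood apart from each other. Between the paired libraries of a condition, log2 values of genes differed with an SD of 0.425 in siNT, 0.371 in siHOXB-AS3 and 0.726 in siHOXA-AS3. The difference followed the GC content of the genes most closely in siHOXA-AS3 (Pearson r = 0.756). It also did so in siNT, with the opposite sign (r = -0.427), and least in siHOXB-AS3 (r = 0.149). These r are over the 12622 genes with a GC value, which are not independent replicates. Some results that rest on the siHOXA-AS3 libraries are also given with 1 of them left out, and the others are given with both only.

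The siRNA sequences are shown because a guide can also act on other transcripts through its seed, bases 2 to 8 of the guide strand. Each guide below is the complement of the target sequence listed by the study, written 5′ to 3′, with the seed in capitals.
siHOXA-AS3 guide 1: uUGUUCGCuauucugucuc
siHOXA-AS3 guide 2: uUGUUCGGcccuuccauug
siHOXA-AS3 guide 3: aGCUUCGCuguccuuuccu
siHOXA-AS3 guide 4: uAACGAGUgcccugucuac
siHOXB-AS3 guide 1: aCUUUGUCucccuuugucg
siHOXB-AS3 guide 2: uUUCUUUCaugcccgacuc
siHOXB-AS3 guide 3: uUUCCCUUcaccccuugac
A 7-base match to a seed in the longest 3′ UTR of each gene in GENCODE v29 was found for the siHOXB-AS3 pool in 40.9% of 11355 genes and for the siHOXA-AS3 pool in 5.59%. Of the 10 genes, VIL1, EZR, FABP1, ANPEP, DPP4 and HNF4A each held 1 match to the siHOXB-AS3 pool, and HNF4A held 1 match to the siHOXA-AS3 pool. CDHR2, CDHR5, LGALS4 and KLF5 held none. The sites are printed with 7 bases on each side and the match in capitals.
VIL1, siHOXB-AS3 siRNA 2: agggaggGAAAGAAaagctca
EZR, siHOXB-AS3 siRNA 3: ttttaaaAAGGGAAagttttg
FABP1, siHOXB-AS3 siRNA 1: gagaagtGACAAAGacttggc
ANPEP, siHOXB-AS3 siRNA 1: cctcaagGACAAAGtctccag
DPP4, siHOXB-AS3 siRNA 3: gaaatgtAAGGGAAactgcca
HNF4A, siHOXA-AS3 siRNA 4: aaaccagACTCGTTcttctgg
HNF4A, siHOXB-AS3 siRNA 2: cctggatGAAAGAAcaagact
They start at position 1248 of the VIL1 3′ UTR, 720 of EZR, 1145 of FABP1, 117 of ANPEP, 637 of DPP4, and 1612 and 3995 of HNF4A, counted from 1 at the first base after the stop codon. The longest 3′ UTR need not belong to the transcripts counted here. That of VIL1 has 3959 bases, that of FABP1 1432 and that of HNF4A 4931. The whole transcript lengths of their rows in the deposited tables are shorter, at 2738, 563 and 4421 bases. Whether the measured transcripts hold these sites is thus not known. These matches are letters in a sequence and were not tested as sites of action.

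The 10 genes covered a wide range of transcript levels in HT-29, from rank 103 to rank 15999 of the rows detected. LGALS4 was the most abundant by FPKM (fragments scaled by gene length and by library depth), with a mean of 1171 over the 6 libraries, and ranked 103 of the 17984 rows detected. KLF5 followed with a mean of 314.5 FPKM, EZR with 38.5, VIL1 with 23.0, DPP4 with 9.29, CDHR5 with 6.76 and HNF4A with 5.19 FPKM. FABP1, CDHR2 and ANPEP were near 0, with means of 0.083, 0.033 and 0.015 FPKM. LGALS4 lay above KLF5, KLF5 above EZR, EZR above VIL1 and VIL1 above DPP4 without overlap between any libraries. DPP4 and CDHR5 overlapped, as did CDHR5 and HNF4A, so the place of CDHR5 was not fixed by the libraries. Compared within each library, DPP4 was above CDHR5 in 5 of 6 and CDHR5 above HNF4A in 3 of 6. DPP4 was above HNF4A within every library. The order of the 7 expressed genes was the same by TPM and by CPM.

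**Figure D1:**
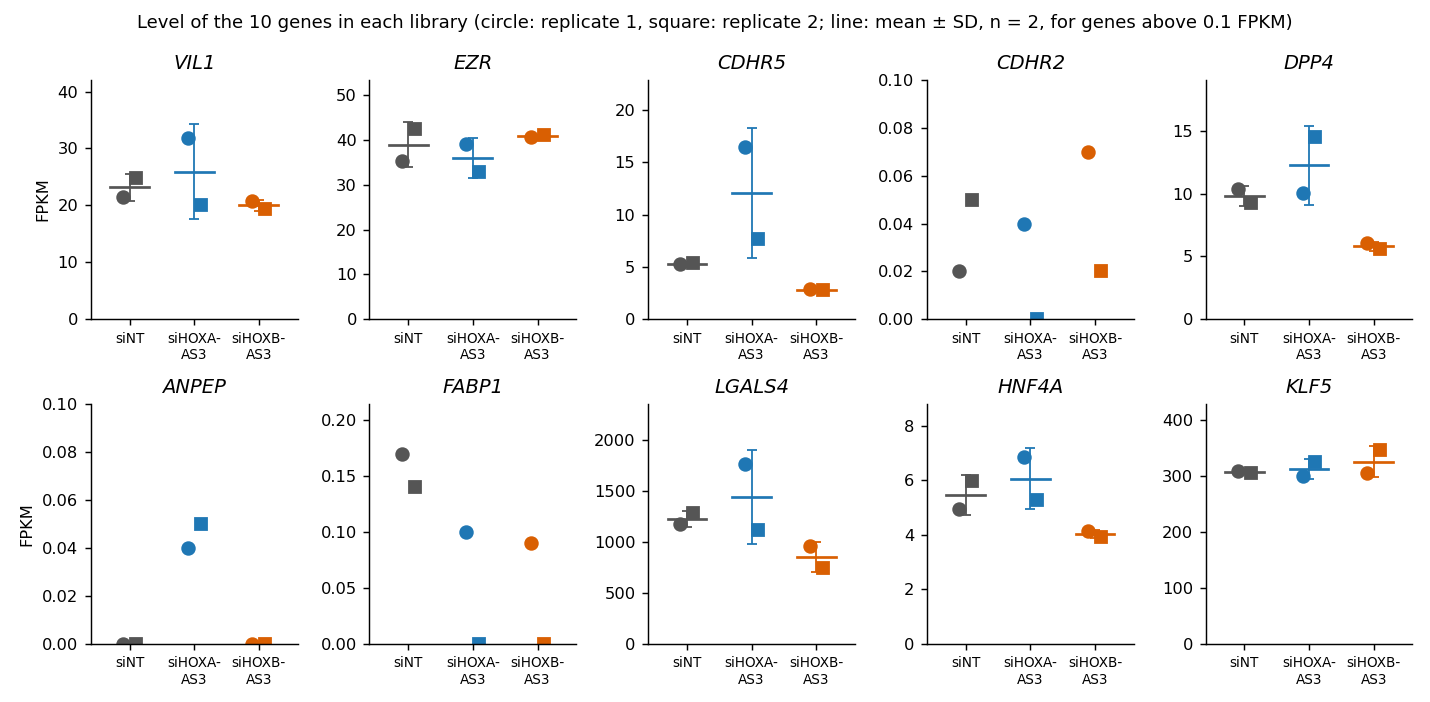
FPKM (y axis, from 0) of each of the 10 genes in the siNT, siHOXA-AS3 and siHOXB-AS3 libraries; circles are replicate 1, squares replicate 2, and lines with bars the mean ± SD (n = 2) for genes above 0.1 FPKM. CDHR5, DPP4, LGALS4 and HNF4A have their siHOXB-AS3 libraries under every other library, while KLF5 and EZR show no such gap and CDHR2, ANPEP and FABP1 lie near 0.

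Among the structural genes, VIL1 was at 21.51 and 24.80 FPKM in siNT, 31.79 and 20.03 FPKM in siHOXA-AS3, and 20.72 and 19.38 FPKM in siHOXB-AS3. Its widest gap was between the siHOXA-AS3 libraries, which lay on either side of all the others except siHOXB-AS3 replicate 2. EZR was at 35.30 and 42.37 FPKM in siNT, 39.12 and 32.78 FPKM in siHOXA-AS3, and 40.56 and 41.03 FPKM in siHOXB-AS3, so the siNT libraries enclosed both siHOXB-AS3 libraries. CDHR5 was at 5.25 and 5.43 FPKM in siNT, 16.49 and 7.71 FPKM in siHOXA-AS3, and 2.92 and 2.78 FPKM in siHOXB-AS3. For CDHR5 the 3 conditions did not overlap: siHOXA-AS3 was highest and siHOXB-AS3 lowest. CDHR2, its partner in tip links, had only 18 expected counts over the 6 libraries, from 0 to 0.07 FPKM.

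Among the digestive and absorptive genes, DPP4, which removes dipeptides from the ends of peptide hormones, was at 10.38 and 9.22 FPKM in siNT, 10.04 and 14.46 FPKM in siHOXA-AS3, and 6.06 and 5.56 FPKM in siHOXB-AS3. Both siHOXB-AS3 libraries lay below the other 4. ANPEP had 6 expected counts, all in the siHOXA-AS3 libraries, at 0.04 and 0.05 FPKM, and 0 in the other 4; a count of 0 allows up to 3 counts, or 0.114 to 0.188 CPM in these libraries (counting error only), so no difference could be detected at this depth. FABP1 had 5 expected counts in all, with 0.17 and 0.14 FPKM in siNT, 0.10 and 0 FPKM in siHOXA-AS3, and 0.09 and 0 FPKM in siHOXB-AS3. LGALS4 was at 1171 and 1280 FPKM in siNT, 1762 and 1110 FPKM in siHOXA-AS3, and 956.4 and 745.4 FPKM in siHOXB-AS3. Both siHOXB-AS3 libraries lay below the rest, and LGALS4 alone made up 64.1% to 81.4% of the summed FPKM of the 10 genes.

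Of the transcription factors, HNF4A was at 4.94 and 5.99 FPKM in siNT, 6.85 and 5.28 FPKM in siHOXA-AS3, and 4.15 and 3.94 FPKM in siHOXB-AS3, with both siHOXB-AS3 libraries lowest. KLF5 was at 307.9 and 305.2 FPKM in siNT, 298.8 and 324.3 FPKM in siHOXA-AS3, and 305.5 and 345.4 FPKM in siHOXB-AS3. KLF5 was the steadiest of the 7 expressed genes, with a coefficient of variation of 5.52% over the 6 libraries against 75.5% for CDHR5. In GENCODE v29, HNF4A overlaps HNF4A-AS1, VIL1 overlaps USP37, EZR overlaps EZR-AS1 and DPP4 overlaps AC008063.1, each on the opposite strand. Whether the counting used strand is not stated, so reads of these partners cannot be told apart.

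The upstream sequences of 4 genes are shown as the contrast between an abundant gene (LGALS4), a gene near 0 (FABP1), and the pair DPP4 and HNF4A that lay lowest together with LGALS4 in siHOXB-AS3. They are the 250 bases before the start from RefSeq (GRCh38.p14), read on the gene's strand, which matched 8 of the 10 genes; VIL1 and CDHR5 had no entry. Capitals mark matches, on either strand, to an HNF1 motif (GTTAAT), an HNF4 motif (CAAAGT), a CDX motif (CATAAA) or a KLF motif (CCACCC). The HNF1 and HNF4 motifs are each only a part of the full binding site, so a match or its absence is not that of a full site.
LGALS4 (chr19:38812946-38813195, minus strand): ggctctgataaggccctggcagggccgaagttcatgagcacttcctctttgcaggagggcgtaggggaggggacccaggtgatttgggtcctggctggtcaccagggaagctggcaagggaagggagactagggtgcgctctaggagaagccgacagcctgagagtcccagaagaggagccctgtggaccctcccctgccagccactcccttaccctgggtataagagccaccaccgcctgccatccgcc
FABP1 (chr2:88128063-88128312, minus strand): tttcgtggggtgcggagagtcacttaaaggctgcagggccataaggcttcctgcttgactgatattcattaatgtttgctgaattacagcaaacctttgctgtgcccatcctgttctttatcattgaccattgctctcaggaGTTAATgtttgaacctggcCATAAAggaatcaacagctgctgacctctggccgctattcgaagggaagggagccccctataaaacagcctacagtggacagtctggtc
DPP4 (chr2:162074216-162074465, minus strand): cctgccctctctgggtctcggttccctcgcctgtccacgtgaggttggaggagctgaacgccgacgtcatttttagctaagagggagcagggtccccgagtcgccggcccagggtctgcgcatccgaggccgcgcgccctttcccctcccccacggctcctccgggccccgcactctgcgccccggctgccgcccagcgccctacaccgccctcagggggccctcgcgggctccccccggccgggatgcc
HNF4A, second start (chr20:44400989-44401238, plus strand): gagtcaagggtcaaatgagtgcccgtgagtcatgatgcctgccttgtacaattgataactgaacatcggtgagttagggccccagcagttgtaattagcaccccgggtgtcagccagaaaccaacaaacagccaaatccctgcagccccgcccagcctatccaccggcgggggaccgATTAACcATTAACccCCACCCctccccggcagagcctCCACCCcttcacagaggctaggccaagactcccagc
Of all 35116 promoters of 300 bases (250 before and 50 after the start), 6.88% held the HNF1 motif, 11.9% the HNF4 motif, 10.6% the CDX motif and 34.3% the KLF motif, on either strand and each counted by itself, also where motifs overlap. The FABP1 promoter, of a gene near 0 here, held 1 HNF1 motif and 1 CDX motif. The second HNF4A promoter held 2 HNF1 motifs and 2 KLF motifs, and the first held 1 KLF motif. Of the promoters not printed, that of EZR held 1 KLF motif, the ANPEP pair held 1 KLF motif and 1 HNF1 motif, and the second of CDHR2 held 1 HNF4 motif and 1 HNF1 motif. Those of LGALS4, DPP4 and KLF5 and the first of CDHR2 held none of the 4 motifs. These are descriptions of letters in the windows.

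The wider gene lists show which parts of an enterocyte these cells transcribe. Of 26 genes of brush border structure, 20 had a mean of at least 1 FPKM and only CDHR2 stayed under 0.1 FPKM in every library. The most abundant were BAIAP2L1, an actin regulator of microvilli, at 95.1 to 151.6 FPKM, EPS8, an actin capping and bundling protein of the tips, at 68.3 to 95.5 FPKM, and PLS1, an actin bundler, at 48.9 to 104.1 FPKM. Of 20 brush border hydrolases, 2 reached a mean of 1 FPKM, DPP4 and DPEP1, and 16 stayed under 0.1 FPKM in every library, 7 of them with no count at all. Among them were ANPEP, ALPI (intestinal alkaline phosphatase), SI (sucrase-isomaltase), LCT (lactase), MGAM (maltase-glucoamylase), TREH, MME, ACE, MEP1A, MEP1B, NAALADL1, XPNPEP2, TMPRSS15, ENPP3 and ENPP7. DPP4 was the highest of the 20 and GGT1 followed DPEP1, at 0.33 to 0.96 FPKM.

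Genes of lipid absorption were sparse too. Of 19 with a row, 11 stayed under 0.1 FPKM in every library (FABP2, APOA4, APOB, APOC3, MTTP, MOGAT2, CD36, NPC1L1, ABCG5, ABCG8 and CREB3L3), which include the parts of chylomicron assembly, while ACSL5, an acyl-CoA synthetase, was at 77.7 to 121.5 FPKM. Of 18 colonocyte markers, 7 reached 1 FPKM, led by LGALS4, KRT20 (218.4 to 305.7 FPKM) and TSPAN1 (79.4 to 154.8 FPKM), and CA1, CA4, AQP8, SLC26A3, MS4A12 and CLCA4 stayed under 0.1 FPKM. Of 22 enterocyte transcription factors, 15 reached 1 FPKM, led by KLF5, PPARG (80.7 to 101.5 FPKM) and FOXA1 (61.6 to 85.3 FPKM), and CDX1, GATA4, MAF, NR1I2 and ISX stayed under 0.1 FPKM. All 7 genes of the ezrin family and its kinases reached 1 FPKM, and MSN (moesin), at 58.3 to 113.8 FPKM, was more abundant than EZR in every library. EZR was second, and the ezrin kinase STK26 came next at 11.2 to 22.0 FPKM. The epithelial identity of the line was checked against 6 genes: KRT18, KRT8, EPCAM, CDH1 and KRT19 were all above 100 FPKM in every library, and CDX2 was at 0.10 to 0.34 FPKM.

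**Figure D2:**
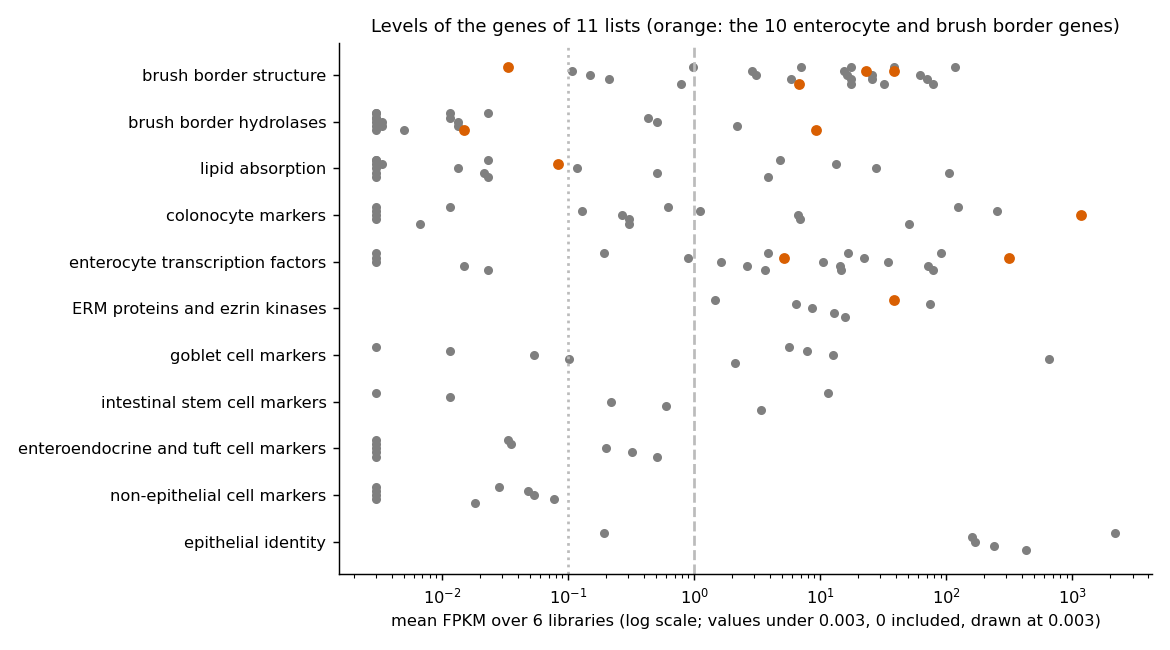
Mean FPKM over the 6 libraries (x axis, log scale) of each gene of 11 lists (y axis), 1 point a gene, with values under 0.003 FPKM, 0 included, drawn at 0.003; orange points are the 10 genes described here and the vertical lines mark 0.1 and 1 FPKM. Structural genes and transcription factors lie mostly above 1 FPKM, while 16 of 20 hydrolases lie under 0.1 FPKM.

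Markers of other cell types were measured beside them. The summed FPKM of 9 goblet cell markers was 752.6 to 776.9 in siNT, 670.3 to 798.9 in siHOXA-AS3 and 520.8 to 584.6 in siHOXB-AS3, led by AGR2, SPINK4 and SPDEF, with CLCA1 and ZG16 under 0.1 FPKM in every library. That of 6 stem cell markers was 16.7 to 17.3 in siNT, 16.3 to 22.5 in siHOXA-AS3 and 10.6 to 10.8 in siHOXB-AS3, led by RNF43, AXIN2 and LGR5, with OLFM4 and SMOC2 under 0.1 FPKM. The 10 enteroendocrine and tuft cell markers summed to 1.41 to 1.83 FPKM in siNT, 1.00 to 1.09 in siHOXA-AS3 and 0.54 to 0.73 in siHOXB-AS3, led by POU2F3, AVIL and NEUROG3, with CHGA, CHGB, NEUROD1, GCG, TRPM5 and DCLK1 under 0.1 FPKM. The 9 non-epithelial markers summed to 0.11 to 0.35 FPKM over all libraries; VIM was the highest, and CD3E, COL1A1, COL1A2, COL3A1, DCN, PECAM1 and VWF stayed under 0.1 FPKM in each.

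HOXB-AS3 KD against siNT asks what changed when the more abundant lncRNA was reduced. CDHR5, DPP4, LGALS4, HNF4A and VIL1 had both siHOXB-AS3 libraries below both siNT libraries on the log2 CPM scale (counts scaled to library size), KLF5 had both above, and EZR overlapped. That is 5 of the 7 genes tested lower without overlap (71.4%), against 30.9% of all 13034 genes tested, and 1 of 7 higher (14.3%), against 30.9%. CDHR2, FABP1 and ANPEP had too few counts to be tested, so these counts cover 7 of the 10 genes. Over both directions, 61.8% of all genes tested did not overlap. VIL1 was among the 5 by a narrow margin, with siHOXB-AS3 replicate 1 at -0.112 and siNT replicate 1 at -0.108 relative to the siNT mean. KLF5 overlapped siNT in FPKM.

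None of the 7 genes passed the edgeR quasi-likelihood test on all 6 libraries (adjusted p below 0.05), where 8 of 13034 genes did (0.0614%). CDHR5 had a log2 fold change of -0.86 (SE 0.36), or 1.82-fold lower, with an edgeR adjusted p of 0.394. DPP4 had a log2 fold change of -0.71 (SE 0.23), or 1.63-fold lower, with an edgeR adjusted p of 0.281. These were the 2 genes of 7 (28.6%) lower at an unadjusted p below 0.05, against 7.75% of all genes. LGALS4 was 1.39-fold lower (log2 fold change -0.48, SE 0.24, edgeR adjusted p = 0.505). HNF4A was 1.35-fold lower (log2 fold change -0.43, SE 0.22, edgeR adjusted p = 0.510). VIL1 differed by -0.16 (SE 0.25), EZR by 0.12 (SE 0.18) and KLF5 by 0.13 (SE 0.14) on the log2 scale. The median over the 7 genes was -0.43, and that over all genes was -0.0056. DESeq2 on all 6 libraries called none of the 7 either, and 347 genes in all (2.66%). With a trend on GC content removed from each library, edgeR called CDHR5 (adjusted p = 0.0102) and DPP4 (adjusted p = 0.00824), against 12.8% of all genes.

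The test above takes its spread from all 6 libraries, the siHOXA-AS3 pair included. With only the 2 conditions compared, edgeR called 4 of the 7 genes lower (57.1%), against 12.1% of 12830 genes called lower and 23.3% called in either direction. These were CDHR5 (adjusted p = 0.000398), DPP4 (adjusted p = 0.000417), LGALS4 (adjusted p = 0.00173) and HNF4A (adjusted p = 0.0378). VIL1 (adjusted p = 0.341), EZR (adjusted p = 0.435) and KLF5 (adjusted p = 0.313) did not pass. DESeq2 on the same 4 libraries called CDHR5, LGALS4 and DPP4 but not HNF4A (adjusted p = 0.0704), against 18.6% of all genes. Each fit without 1 library leaves 1 library in a condition, so effect sizes are given. Over these fits the log2 fold change ran from -0.91 to -0.82 for CDHR5 and from -0.78 to -0.62 for DPP4. It ran from -0.66 to -0.31 for LGALS4 and from -0.60 to -0.25 for HNF4A. None of the 7 was called without either of the siNT or siHOXB-AS3 libraries. Almost no gene at all was called in those fits, so this is not particular to the 7. Over all alternatives the adjusted p of CDHR5 ranged from 9.85e-05 to 1, that of DPP4 from 2.97e-05 to 1, that of LGALS4 from 0.000668 to 1 and that of HNF4A from 0.0155 to 1. The log2 fold changes of these 4 genes stayed below 0 in every alternative run. The goblet cell and EPCAM values that moved in the same libraries are given below, and their part in these values was not tested.

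**Figure D3:**
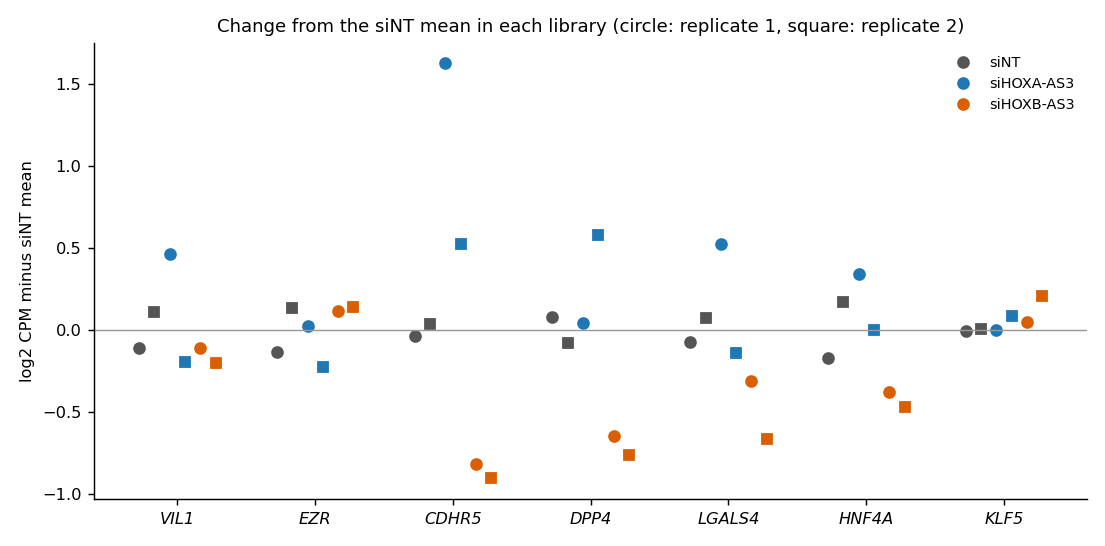
Log2 CPM minus the siNT mean (y axis) for the 7 genes tested (x axis), 1 point a library; circles are replicate 1 and squares replicate 2. The siHOXB-AS3 libraries lie together between -0.31 and -0.90 for CDHR5, DPP4, LGALS4 and HNF4A, and the siHOXA-AS3 libraries lie far apart for CDHR5, VIL1, LGALS4 and DPP4.

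HOXA-AS3 KD against siNT asks the same of the scarcer lncRNA. CDHR5 was the gene with both siHOXA-AS3 libraries on 1 side of siNT, 1.62 and 0.52 above the siNT mean on the log2 CPM scale. That is 1 of the 7 genes tested (14.3%), against 28.6% of all genes, 12.5% higher and 16.1% lower. None of the 7 genes was called by edgeR, where 0 of 13034 genes were called (0%) and 803 (6.16%) had an unadjusted p below 0.05; DESeq2 called none of the 7 and 51 genes in all (0.391%). CDHR5 had a log2 fold change of 1.18 (SE 0.35), or 2.27-fold higher, with an edgeR adjusted p of 0.617 and a DESeq2 adjusted p of 0.0634. CDHR5 was the 1 gene of the 7 with an unadjusted p below 0.05, against 2.75% of all genes higher at that level. With only the 2 conditions compared, edgeR called none of the 7 (0% of all genes) and DESeq2 none (0.125%).

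The siHOXA-AS3 libraries disagreed on the size of the CDHR5 value and on the direction of others. Without siHOXA-AS3 replicate 1 the CDHR5 log2 fold change was 0.52 (edgeR adjusted p = 0.0243, with 4031 genes or 30.3% called), and without siHOXA-AS3 replicate 2 it was 1.64 (edgeR adjusted p = 1.93e-07, with 2402 genes or 17.9% called). The GC content of the longest GENCODE v29 transcript is 64.5% for CDHR5, 57.85% for LGALS4, 52.8% for HNF4A and 51.2% for EZR. It is 47.0% for KLF5, 44.4% for VIL1 and 44.3% for DPP4. For VIL1 and HNF4A that transcript is longer than the row counted here, so these values need not hold for the transcripts measured. Different siHOXA-AS3 replicates carried the values of VIL1 and DPP4, as given below. The part of GC content in these gaps was not tested. With a trend on GC content removed from each library, CDHR5 had a log2 fold change of 1.15 (SE 0.13, edgeR adjusted p = 0.00550), where 451 genes (3.46%) were called. DPP4 was 0.33 (SE 0.23) higher on the log2 scale, carried by replicate 2: it was 0.57 without replicate 1 and 0.046 without replicate 2. LGALS4 (0.23, SE 0.24), HNF4A (0.18, SE 0.22) and VIL1 (0.17, SE 0.25) were carried by replicate 1 and turned to -0.14, -0.0049 and -0.19 on the log2 scale without it. EZR (-0.10, SE 0.18) and KLF5 (0.042, SE 0.14) were near 0.

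The difference between the KDs was tested directly in the same model. Both KDs are set against the same siNT libraries, so their values are given side by side and not correlated. CDHR5 was 4.13-fold lower in HOXB-AS3 KD than in HOXA-AS3 KD (log2 fold change -2.05, SE 0.36, edgeR adjusted p = 0.0514), which missed the threshold; the DESeq2 adjusted p was 2.47e-07. DPP4 was 2.05-fold lower (log2 fold change -1.04, SE 0.23, edgeR adjusted p = 0.0846, DESeq2 adjusted p = 0.00343). LGALS4 (-0.71, SE 0.24) and HNF4A (-0.61, SE 0.22) were lower with edgeR adjusted p of 0.191 and 0.213. VIL1 (-0.33, SE 0.25), EZR (0.22, SE 0.18) and KLF5 (0.088, SE 0.14) had edgeR adjusted p of 0.541, 0.571 and 0.793.

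EdgeR thus called 0 of the 7 genes in this comparison, where 204 of 13034 genes (1.57%) were called and 4 of the 7 were lower at an unadjusted p below 0.05, against 10.5% of all genes. Without overlap 4 were lower and EZR was higher, against 22.5% lower, 22.8% higher and 45.3% in all. DESeq2 called CDHR5 and DPP4, against 6.08% of all genes. CDHR5 also passed with RLE size factors (1.70% of genes called) and with library totals as scaling (1.72%). CDHR5 and DPP4 passed without the filter on low counts (3.99% of genes called), and with GC trends removed CDHR5, LGALS4, DPP4 and HNF4A passed, against 24.5% of all genes. With only the KD libraries in the fit edgeR called none of the 7 (0.0156% of all genes), and DESeq2 called CDHR5 and DPP4 (3.11%). Without siHOXA-AS3 replicate 1 the CDHR5 log2 fold change was -1.38 and without siHOXA-AS3 replicate 2 it was -2.50; 37.8% and 36.0% of all genes were then called. The siHOXA-AS3 and siHOXB-AS3 libraries of CDHR5 lay on opposite sides of siNT without overlap, as did those of 1179 of 13034 genes (9.05%).

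**Figure D4:**
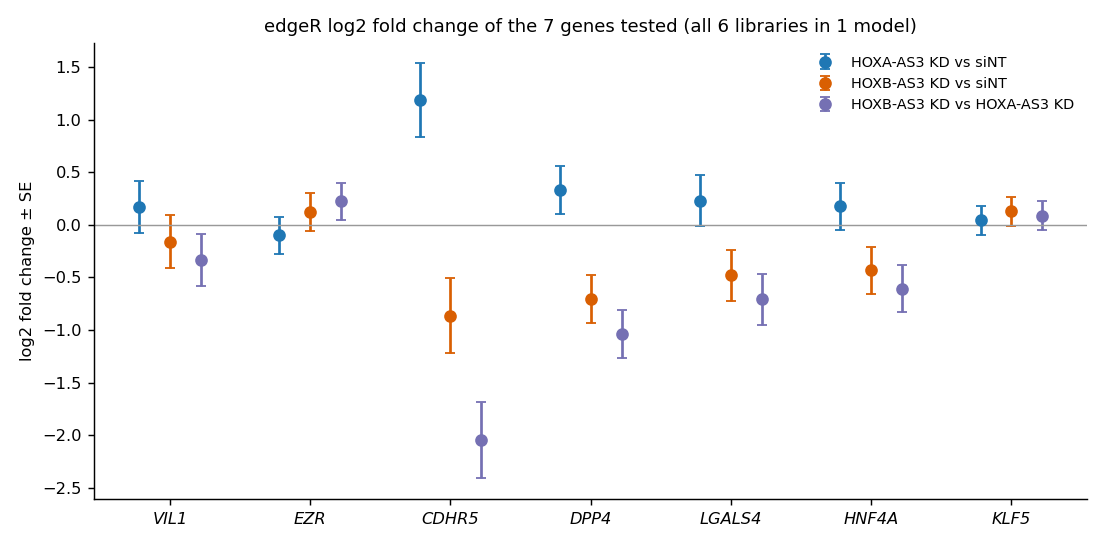
Log2 fold change ± SE (y axis) from edgeR on all 6 libraries for the 7 genes tested (x axis) in the 3 comparisons, shown by colour. CDHR5 has the widest span of the 7, from 1.18 in HOXA-AS3 KD and -0.86 in HOXB-AS3 KD to -2.05 between the KDs, and KLF5 the narrowest.

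The wider lists were read from the same fits, and they include the genes described above. Brush border structure holds VIL1, EZR, CDHR2 and CDHR5, and the hydrolases hold ANPEP and DPP4. Lipid absorption holds FABP1, the colonocyte markers LGALS4, the transcription factors HNF4A and KLF5, and the ezrin family EZR. The counts of these lists are thus not independent of those above. In HOXB-AS3 KD, 13 of the 25 genes of brush border structure tested were lower without overlap and 6 higher, against 30.9% of all genes in each direction. None was called by edgeR on all 6 libraries, and 7 of the 23 tested with only the 2 conditions compared were called lower and 3 higher, against 12.1% and 11.2% of all genes. DESeq2 on all 6 libraries called 1 of the 25 lower, NHERF1, and 0 higher, against 1.74% and 0.921% of all genes. The median log2 fold change of the list was -0.17. NHERF1, a scaffold that binds ezrin and whose row also holds a microRNA gene, was at 76.54 and 81.68 FPKM in siNT and 41.70 and 40.49 FPKM in siHOXB-AS3 (log2 fold change -0.90, SE 0.22, edgeR adjusted p = 0.176, DESeq2 adjusted p = 0.0201). MYO1E, a class I myosin, was at 6.20 and 6.42 FPKM in siNT and 8.91 and 9.17 FPKM in siHOXB-AS3 (log2 fold change 0.57, SE 0.18, edgeR adjusted p = 0.261). In HOXA-AS3 KD edgeR on all 6 libraries called none of the 25, CDHR5 was called with the GC trend removed as given above, and the median was 0.022; after CDHR5, BAIAP2L1 had the lowest p of those without overlap (log2 fold change 0.31, SE 0.15, edgeR adjusted p = 0.862).

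Of the hydrolases, 4 of 20 could be tested. In HOXB-AS3 KD all 4 had libraries apart from siNT, as did 61.8% of all genes, with DPP4 and 2 others lower and DPEP1, a dipeptidase, higher at 2.91 and 3.49 FPKM against 1.90 and 1.63 FPKM in siNT (log2 fold change 0.90, SE 0.34, edgeR adjusted p = 0.349). None of the 4 was called in either KD by edgeR or DESeq2 on all 6 libraries. With only the 2 conditions compared, edgeR called 2 lower and 1 higher in HOXB-AS3 KD, against 23.3% of all genes called. Of the lipid absorption genes, 5 of 19 could be tested and none was called in either KD by edgeR or DESeq2 on all 6 libraries. With only the 2 conditions compared, edgeR called 1 higher and 1 lower in HOXB-AS3 KD, against 11.2% and 12.1% of all genes. ACSL5 was at 120.6 and 118.0 FPKM in siNT and 77.7 and 79.8 FPKM in siHOXB-AS3 (log2 fold change -0.55, SE 0.14, edgeR adjusted p = 0.190), and SCARB1, a lipoprotein receptor, was at 22.8 and 27.2 FPKM in siNT and 35.3 and 39.2 FPKM in siHOXB-AS3 (log2 fold change 0.62, SE 0.29, edgeR adjusted p = 0.469). PLIN2, a lipid droplet coat protein, was the 1 of 5 lipid genes apart from siNT in HOXA-AS3 KD, where 28.6% of all genes were (log2 fold change 0.34, SE 0.22, edgeR adjusted p = 0.940). DGAT1, which makes triglycerides and whose row also holds a microRNA gene, was at 10.3 to 18.7 FPKM over the 6 libraries.

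The colonocyte markers had a median log2 fold change of -0.66 in HOXB-AS3 KD, with 7 of 11 lower and 1 higher without overlap, against 30.9% of all genes in each direction. None was called by edgeR on all 6 libraries, and 6 of the 10 tested with only the 2 conditions compared were called lower, against 12.1% of all genes. DESeq2 on all 6 libraries called 1 of the 11 lower, PHGR1, and 0 higher, against 1.74% and 0.921% of all genes. PHGR1, a small protein of differentiated gut epithelium, was at 58.7 and 74.6 FPKM in siNT and 28.7 and 26.5 FPKM in siHOXB-AS3 (log2 fold change -1.22, SE 0.36, edgeR adjusted p = 0.244, DESeq2 adjusted p = 0.0219). TSPAN1, a tetraspanin, was at 137.5 and 153.9 FPKM in siNT and 98.96 and 79.38 FPKM in siHOXB-AS3 (log2 fold change -0.66, SE 0.21, edgeR adjusted p = 0.270). In HOXA-AS3 KD the median was 0.18 and none was called; SELENBP1 had a log2 fold change of -0.35 (SE 0.26) and GUCA2A, a guanylin precursor, of 0.59 (SE 0.50).

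Of the 17 transcription factors tested, none was called in either KD by edgeR on all 6 libraries, 7 were higher and 8 lower without overlap in HOXB-AS3 KD (30.9% of all genes in each direction), and 3 were called higher and 4 lower with only the 2 conditions compared (11.2% and 12.1% of all genes). GATA6, a regulator of endoderm and gut epithelium, was at 20.1 and 18.1 FPKM in siNT and 29.6 and 32.5 FPKM in siHOXB-AS3 (log2 fold change 0.75, SE 0.17, edgeR adjusted p = 0.158, DESeq2 adjusted p = 0.0440). HES1, the Notch target that favours absorptive over secretory fate, was at 30.3 and 27.0 FPKM in siNT and 44.1 and 49.4 FPKM in siHOXB-AS3 (log2 fold change 0.75, SE 0.19, edgeR adjusted p = 0.176). VDR, the vitamin D receptor, named after its values were seen as the gene of this list with the lowest log2 fold change, was at 2.05 and 2.37 FPKM in siNT and 1.00 and 0.50 FPKM in siHOXB-AS3 (log2 fold change -1.51, SE 0.42, edgeR adjusted p = 0.219, DESeq2 adjusted p = 0.0121). GATA6 higher and VDR lower were the only DESeq2 calls among the 17 in HOXB-AS3 KD, against 0.921% and 1.74% of all genes. In HOXA-AS3 KD, ELF3, an epithelial ETS factor, had a log2 fold change of -0.68 (SE 0.26, edgeR adjusted p = 0.736) and GRHL2 of -0.34 (SE 0.18, edgeR adjusted p = 0.878). Among the ezrin family, MSN had a log2 fold change of 0.68 (SE 0.19, edgeR adjusted p = 0.612) and NF2, or merlin, of -0.56 (SE 0.21, edgeR adjusted p = 0.734) in HOXA-AS3 KD; in HOXB-AS3 KD, NF2 was at -0.18 (SE 0.21) and STK26 at 0.30 (SE 0.32).

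**Figure D5:**
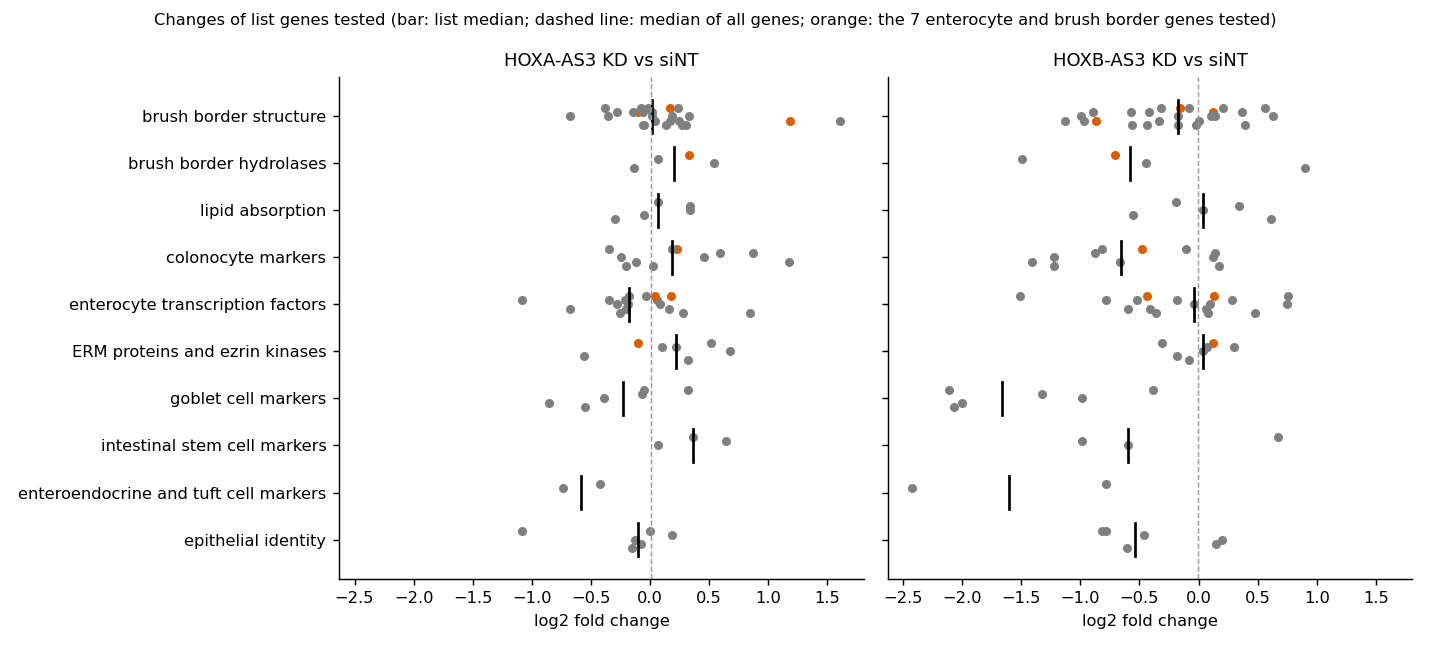
Log2 fold change (x axis) of each list gene tested in HOXA-AS3 KD and HOXB-AS3 KD against siNT, 1 point a gene, by list (y axis); the bar is the list median, the dashed line the median of all 13034 genes, and orange points are the 7 genes described here. The goblet cell markers have a median of -1.67 in HOXB-AS3 KD, and the brush border structure genes -0.17.

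Markers of other cells were read in the same libraries; the 9 non-epithelial markers had too few counts to be tested. All 6 goblet cell markers tested were lower without overlap in HOXB-AS3 KD (median log2 fold change -1.67); 30.9% of all genes were. None was called by edgeR on all 6 libraries and 3 were called lower by DESeq2, against 1.74% of all genes called lower. All 6 had an unadjusted edgeR p below 0.05, against 7.75% of all genes lower at that level, and all 6 were called lower with only the 2 conditions compared, against 12.1%. MUC2, the gel-forming mucin, was at 3.24 and 1.93 FPKM in siNT, 3.37 and 3.04 FPKM in siHOXA-AS3, and 0.64 and 0.52 FPKM in siHOXB-AS3. SPDEF, the goblet cell transcription factor, was at 11.55 and 13.06 FPKM in siNT, 11.08 and 5.63 FPKM in siHOXA-AS3, and 2.97 and 2.67 FPKM in siHOXB-AS3. EPCAM, an epithelial adhesion protein, was at 288.7 and 278.1 FPKM in siNT, 270.3 and 296.1 FPKM in siHOXA-AS3, and 158.5 and 153.3 FPKM in siHOXB-AS3. CDH1 (E-cadherin) had a log2 fold change of -0.46 (SE 0.15) and RNF43 of -0.60 (SE 0.23) in HOXB-AS3 KD. Other genes of the same lists were higher than siNT without overlap on the log2 CPM scale: the stem cell marker LGR5 (0.67, SE 0.37) and the keratins KRT8 (0.20, SE 0.31) and KRT18 (0.14, SE 0.23), with edgeR adjusted p of 0.552, 0.867 and 0.870. Of the list genes, only MUC2, AXIN2 and EPCAM were called by edgeR on all 6 libraries in any comparison, each lower in HOXB-AS3 KD than in HOXA-AS3 KD.

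For the 3 most abundant genes, transcripts of similar pattern over the 6 libraries were found among 10959 genes with a mean of at least 1 FPKM, as a description. LGALS4 was most like SUSD6, ZNF358 and PLCXD1 (Pearson r of log2 CPM 0.999, 0.996 and 0.995), EZR had CGREF1 and ZNF263 among its closest (0.992 and 0.987), and KLF5 was most like F2RL1, ARF4-AS1 and RP9P (0.979, 0.978 and 0.977). With 6 libraries in 3 conditions such values are common: 146 genes exceeded 0.95 for LGALS4, 63 for EZR and 9 for KLF5.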

How the data were processed

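RNA-seq of HT-29 cells was analysed in 6 libraries (2 each of siNT, siHOXA-AS3 and siHOXB-AS3, grouped by their labels). The authors prepared poly(A) libraries with the SENSE mRNA-Seq kit and quantified them with RSEM on RefSeq genes; per the labels the build is hg19; which aligner, RSEM version and strandedness were used is not given in the sources used here. The deposited expected counts are RSEM estimates, not normalized; the deposited TPM and FPKM values were computed by the authors with RSEM to adjust for transcript length and sequencing depth. Each file holds 27434 rows named by gene identifiers, and symbols were matched through RefSeq; rows with no symbol matched held 1.82% to 2.17% of the counts and stayed in the tests, and rows joining several genes held 6.02% to 6.62%. No libraries were alike within sampling noise (lowest chi-square per degree of freedom 6.77).

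Expected counts were rounded and tested with edgeR 4.0.16 in R 4.3.3 (filterByExpr with a minimum count of 10, TMM, robust quasi-likelihood test, 1 model of all 6 libraries, Benjamini-Hochberg adjustment over 13034 genes, threshold 0.05). Standard errors were taken from the fold change and its F statistic. Library depth limits the precision of genes with few counts, and the intervals allowed by counts of 0 cover counting error only. The test was run on simulated data in which 200 of 13034 genes differed 4-fold: it found 90% of them for HOXA-AS3 KD (12 false calls) and 88% for HOXB-AS3 KD (16 false calls). The simulated counts had the same spread in every condition and no GC trend, unlike the real libraries. The largest change of the 7 genes against siNT was 2.27-fold, so these rates do not give the power for them. Alternatives were DESeq2 1.42.0, library totals or RLE factors as scaling, every gene with at least 1 count, genes with a mean of at least 1 FPKM, only the groups compared, a replicate block, limma-trend (limma 3.58.1) on log2(FPKM + 0.1), and each library left out. Added after the data were seen were a loess trend on GC content removed per library, alone or with only the groups compared, DESeq2 with only the groups compared, and a crossed replicate block.

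The 10 genes, the gene lists and the tests were chosen with earlier results of these data known. From each list the text names the genes called in any comparison, for each KD up to 2 genes of lowest p among those with a mean of at least 1 FPKM and libraries apart from siNT, the 3 of highest mean FPKM and those under 0.1 FPKM in every library; KRT19 and CDX2 were added as the rest of the identity list. GC content of the longest transcript and UTR sequences were read from GENCODE v29, promoters from RefSeq (GRCh38.p14). Protein sequences were not used here. Some items that the naming rule selects are not reported here.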

Additional observations from a re-analysis of the deposited data

Results flagged for a closer look

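The log2 fold change between HOXB-AS3 KD and HOXA-AS3 KD drew attention for 9 of the genes named. MUC2 (-2.43, edgeR adjusted p = 0.0287), AXIN2 (-1.63, edgeR adjusted p = 0.0326) and EPCAM (-0.82, edgeR adjusted p = 0.0471) passed the test of the difference between the KDs. Without siHOXA-AS3 replicate 1 or 2 the log2 fold change was -2.36 and -2.50 for MUC2, -1.53 and -1.72 for AXIN2, and -0.88 and -0.75 for EPCAM. Such a fit leaves 1 library in that condition and drops its wide spread. It therefore cannot show whether the 3 calls hold. The calls were lost without any other library, except that of MUC2 without siNT replicate 2. Without siHOXB-AS3 replicate 1 or 2 the edgeR adjusted p was 0.28 and 0.472 for MUC2, 0.385 and 0.505 for AXIN2, and 0.469 and 0.613 for EPCAM. Without siNT replicate 1 or 2 it was 0.0505 and 0.0461 for MUC2, 0.114 and 0.11 for AXIN2, and 0.184 and 0.190 for EPCAM. Over all alternatives the adjusted p ranged from 7.65e-12 to 0.472 for MUC2, from 3.97e-07 to 0.505 for AXIN2 and from 1.07e-06 to 0.613 for EPCAM.

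CDHR5 (-2.05), BAIAP2L1 (-0.48), CDH1 (-0.65), GATA6 (0.93), GRHL2 (0.63) and FOXA1 (0.37) had the libraries of the 2 KDs on opposite sides of both siNT libraries, as did AXIN2. The test of the difference did not pass for these 6 genes in the model of all 6 libraries, with edgeR adjusted p of 0.0514, 0.157, 0.0919, 0.0558, 0.136 and 0.262. Of all 13034 genes, 9.05% had libraries on opposite sides.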

How the results depend on the processing

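Each fit was repeated under 18 alternatives. For the 7 genes tested in 3 comparisons, 315 of 378 values kept their direction and side of the threshold, 56 kept their direction and passed it, and 7 changed sign. In HOXA-AS3 KD, VIL1 (-0.19), LGALS4 (-0.14) and HNF4A (-0.0049) changed sign without siHOXA-AS3 replicate 1, and EZR changed without siNT replicate 2 (0.037) and without siHOXA-AS3 replicate 2 (0.025). EZR in HOXB-AS3 KD became -0.012 without siNT replicate 1, and VIL1 between the KDs became 0.040 without siHOXA-AS3 replicate 1. Leaving out 1 library gave a range up to 0.47 for VIL1, 0.53 for LGALS4 and 0.35 for HNF4A and down to -0.23 for EZR in HOXA-AS3 KD, up to 0.26 for EZR in HOXB-AS3 KD and down to -0.63 for VIL1 between the KDs.

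The numbers of genes called are given for HOXA-AS3 KD, HOXB-AS3 KD and the difference between the KDs, in that order, from 0, 8 and 204. They were 51, 347 and 792 with DESeq2, 24, 265 and 706 without the filter, 0, 2995 and 2 with only the groups compared, 451, 1663 and 3192 with the GC trend removed, 42, 4292 and 2084 with both of the last, and 16, 2390 and 399 with DESeq2 on only the groups compared. Limma-trend called 1, 14 and 168. Leaving out 1 library gave 0 to 4031, 0 to 3035 and 0 to 5027; the highest counts came without a siHOXA-AS3 library, where the remaining library was assumed to vary like the other conditions. Of the 7 genes, the numbers called were 1, 2 and 4 with the GC trend removed, 1, 4 and 4 with the GC trend removed in only the groups compared, 0, 4 and 0 with only the groups compared, and 0, 3 and 2 with DESeq2 on only the groups compared. For the difference between the KDs they were 2 with DESeq2, 2 without the filter and 1 with RLE size factors or library totals. Leaving out 1 library gave 0 to 3, 0 to 4 and 0 to 5.

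Nothing in the labels says whether same-numbered libraries were paired. The correlation of their deviations over genes was -0.347 for siNT with siHOXA-AS3, -0.139 for siNT with siHOXB-AS3 and 0.15 for the KDs. Genes are not independent and the deviations followed GC content, so these values cannot tell whether the libraries were paired. With the replicate block, 0, 0 and 10 genes and none of the 7 were called. With the crossed replicate block, 14, 225 and 758 genes and 0, 0 and 3 of the 7 were called. CPM changed the order of CDHR2, FABP1 and ANPEP only, all near 0, where depth limits what can be seen. The cause of these shifts was not tested.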
